A study of Mus musculus with 12 samples.

Results

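The aminoacyl-tRNA synthetase genes of mouse RAW264.7 cells (written Raw264.7 in the labels), a monocyte and macrophage line, were followed through lists of MYC and MAX binding sites from chromatin immunoprecipitation and sequencing (ChIP-seq). The 36 members were chosen by name, 20 genes of the cytosolic enzymes and 16 of the mitochondrial ones, out of 21887 protein-coding genes in the gene table, and all 36 were found. A member counts as bound in a list when a peak overlaps its annotated extent plus 1 kb on each side by at least 1 bp (mm10, the same assembly as the GRCm38.p6 gene table). The groups were RANKL (50 ng/ml) combined with the BET inhibitor I-BET (500 nM), I-BET on its own, RANKL on its own, each for 4 h, and untreated cells. RANKL is the cytokine that starts osteoclast formation, and I-BET blocks the bromodomains of the BET proteins. Each antibody has 1 peak list per treatment, so nothing here could be tested between treatments or checked against replicates, and the read depth is unknown. All groups come from the same line, whose source is labelled as bone marrow.

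In the order RANKL plus I-BET, I-BET, RANKL and untreated, the MAX lists hold 6307, 36785, 10889 and 8839 peaks and the MYC lists 11, 136, 299 and 312. Because the lists differ in length, a rank (1 is the highest score in its own list) is a place within a list and shows no change between treatments. In the untreated MAX list 4 of 8 macrophage markers had a peak (Spi1, Csf1r, Cd68 and Lyz2, but not Adgre1, Itgam, Mrc1 or Cd14), and 0 of 6 markers of other cell types did. With I-BET 7 of the 8 macrophage markers and 2 of the 6 others (Rbfox3 and Col1a1) had a MAX peak.

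Aminoacyl-tRNA synthetases join each amino acid to its tRNA, and every protein made in the cell depends on them. The cytosolic and the mitochondrial compartment mostly use enzymes from separate genes, the mitochondrial ones being made in the cytosol and imported, while Gars and Kars supply both. Several cytosolic enzymes sit together in the multisynthetase complex. MYC is known for driving genes of protein synthesis and growth. It binds E-box DNA as a pair with MAX, and MAX also pairs with MXD proteins, MNT and MGA at such sites.

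Promoter sequences of 8 members are shown because the findings turn on them. Ears2 and Yars had MYC peaks at their start sites, and Farsb, Iars and Tars had MAX in all 4 treatments over an E-box at the start site. Sars, Sars2 and Aars2 had MAX with I-BET only. Each sequence is 300 bases, from 250 before the start site, and is given 5′ to 3′ along the gene (RefSeq, GRCm38.p6). Capitals mark the canonical E-box CACGTG, the variant E-box CACGCG or its reverse complement CGCGTG, and the core TGATGCAA or its reverse complement TTGCATCA of the amino acid response element, which the stress factor ATF4 is known to bind.
Ears2: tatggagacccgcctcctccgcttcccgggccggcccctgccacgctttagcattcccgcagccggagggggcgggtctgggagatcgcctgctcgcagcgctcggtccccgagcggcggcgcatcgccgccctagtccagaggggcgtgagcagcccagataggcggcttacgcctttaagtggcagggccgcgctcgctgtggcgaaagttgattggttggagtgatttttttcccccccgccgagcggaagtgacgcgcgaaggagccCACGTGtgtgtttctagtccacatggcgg
Yars: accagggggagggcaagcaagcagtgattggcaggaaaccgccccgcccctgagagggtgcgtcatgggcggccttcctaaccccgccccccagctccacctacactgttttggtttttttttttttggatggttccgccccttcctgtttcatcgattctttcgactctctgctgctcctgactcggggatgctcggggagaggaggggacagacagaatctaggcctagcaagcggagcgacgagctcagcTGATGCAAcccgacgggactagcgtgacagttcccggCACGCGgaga
Farsb: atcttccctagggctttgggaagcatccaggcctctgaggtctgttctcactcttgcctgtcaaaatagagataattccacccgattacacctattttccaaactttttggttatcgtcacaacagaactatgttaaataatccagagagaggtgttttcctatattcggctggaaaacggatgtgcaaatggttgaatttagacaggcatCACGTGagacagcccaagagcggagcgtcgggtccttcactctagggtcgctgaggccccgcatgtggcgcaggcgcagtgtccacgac
Iars: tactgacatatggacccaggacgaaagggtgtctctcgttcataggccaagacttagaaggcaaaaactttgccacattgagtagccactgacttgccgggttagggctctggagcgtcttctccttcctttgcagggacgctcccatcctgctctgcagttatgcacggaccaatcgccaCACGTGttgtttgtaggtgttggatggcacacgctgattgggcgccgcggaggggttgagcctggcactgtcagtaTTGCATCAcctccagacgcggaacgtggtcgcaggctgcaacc
Tars: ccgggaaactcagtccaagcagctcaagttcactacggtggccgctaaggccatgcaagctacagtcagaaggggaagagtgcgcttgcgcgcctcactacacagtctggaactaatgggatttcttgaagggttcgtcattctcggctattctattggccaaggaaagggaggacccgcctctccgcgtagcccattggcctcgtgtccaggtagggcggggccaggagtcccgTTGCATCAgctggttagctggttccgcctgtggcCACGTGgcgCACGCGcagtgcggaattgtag
Sars: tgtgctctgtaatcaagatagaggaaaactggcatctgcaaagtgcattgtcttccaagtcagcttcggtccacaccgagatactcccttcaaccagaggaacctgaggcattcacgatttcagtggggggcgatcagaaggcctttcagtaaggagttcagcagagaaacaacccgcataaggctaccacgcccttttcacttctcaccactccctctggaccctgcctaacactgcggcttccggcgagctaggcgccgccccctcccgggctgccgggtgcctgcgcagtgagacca
Sars2: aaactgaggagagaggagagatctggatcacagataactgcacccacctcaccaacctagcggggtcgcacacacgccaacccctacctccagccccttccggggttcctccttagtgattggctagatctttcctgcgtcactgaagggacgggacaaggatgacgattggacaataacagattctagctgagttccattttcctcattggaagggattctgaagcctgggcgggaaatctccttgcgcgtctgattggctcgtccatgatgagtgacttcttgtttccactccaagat
Aars2: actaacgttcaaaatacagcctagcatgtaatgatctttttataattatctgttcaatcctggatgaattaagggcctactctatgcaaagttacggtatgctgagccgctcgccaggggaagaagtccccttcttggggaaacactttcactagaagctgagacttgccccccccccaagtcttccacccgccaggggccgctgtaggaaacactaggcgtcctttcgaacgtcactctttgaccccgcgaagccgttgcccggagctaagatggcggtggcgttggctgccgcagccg
The regions are chr7:122067037-122067336 on the minus strand for Ears2, chr4:129189653-129189952 on the plus strand for Yars and chr1:78488848-78489147 on the minus strand for Farsb. Iars is at chr13:49681880-49682179 (plus) and Tars at chr15:11399609-11399908 (minus). Sars is at chr3:108445210-108445509 (minus), Sars2 at chr7:28741718-28742017 (plus) and Aars2 at chr17:45506582-45506881 (plus).

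MYC was listed at 4 members. With RANKL plus I-BET 0 of 36 members had a MYC peak (0.0366% of all protein-coding genes). With I-BET there were 2 (0.292% of all genes), with RANKL 2 (1.35%) and in untreated cells 3 (1.42%). These counts rest on 7 entries in lists of 11 to 312 peaks, and the absence of an entry is no proof that MYC was absent.

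Ears2, the mitochondrial glutamyl-tRNA synthetase, had a MYC peak at its start site in 3 of the 4 treatments. The MYC peak was 129 bp wide with I-BET (chr7:122066897-122067025, rank 127 of 136), 305 bp with RANKL (chr7:122066881-122067185, rank 99 of 299) and 349 bp in untreated cells (chr7:122066840-122067188, rank 115 of 312). It was not listed with RANKL plus I-BET. The CACGTG of the Ears2 promoter starts 21 bp downstream of the start site and lies inside the RANKL and the untreated MYC peak, but outside the narrower I-BET one. MAX covered the same E-box in all 4 lists. The MAX peak at Ears2 was 742 bp wide with RANKL plus I-BET (rank 124), 1340 bp with I-BET (rank 16), 872 bp with RANKL (rank 62) and 740 bp (rank 36) in untreated cells. The MYC and MAX peaks also lie within 1 kb of the neighbouring gene Ubfd1, so they cannot be given to Ears2 alone.

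Yars, the cytosolic tyrosyl-tRNA synthetase, had a MYC peak with RANKL (chr4:129189778-129190057, 280 bp, rank 125) and not in untreated cells. This peak covers the variant E-box 40 bp downstream of the start site and the TGATGCAA core 3 bp downstream. MAX was listed there in all 4 treatments, 475 bp wide with RANKL plus I-BET, 1604 bp with I-BET, 689 bp with RANKL and 514 bp in untreated cells. S100pbp shares the site.

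Vars, the cytosolic valyl-tRNA synthetase, had a MYC peak in untreated cells (chr17:35000982-35001329, 348 bp, rank 149) and not with RANKL. MAX overlapped this site in all 4 lists. The MAX peak there ranked 7 with RANKL plus I-BET (929 bp wide), 41 with RANKL (927 bp) and 32 in untreated cells (982 bp). With I-BET it was 1612 bp wide but it carries a score of 0 in the deposited list. The I-BET MAX list has 17 peaks with a score of 0, which are 811 to 2199 bp wide (median 1014 bp, against 480 bp for the list), so a score of 0 does not mark a narrow peak and no rank is given for it. The window of D17H6S56E-5 also holds this peak.

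Lars2, the mitochondrial leucyl-tRNA synthetase, had a MYC peak far from its promoter. Whether reads pile up there without binding, or map to a repeat, was not tested, so MYC binding at this place is not shown. The MYC peak was 103 bp wide with I-BET (chr9:123461972-123462074, rank 124) and 356 bp in untreated cells (chr9:123461805-123462160, rank 61), and none was listed with RANKL plus I-BET or with RANKL. Its midpoint is 95055 bp downstream of the start site in untreated cells, 693 bp inside the far end of the gene. The untreated MYC peak overlapped no untreated MAX peak, while with I-BET a 382 bp MAX peak was listed at the same place. At the Lars2 start site itself MAX was listed with I-BET (837 bp) and in untreated cells (262 bp, rank 7397 of 8839) and MYC in no list.

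**Figure D1:**
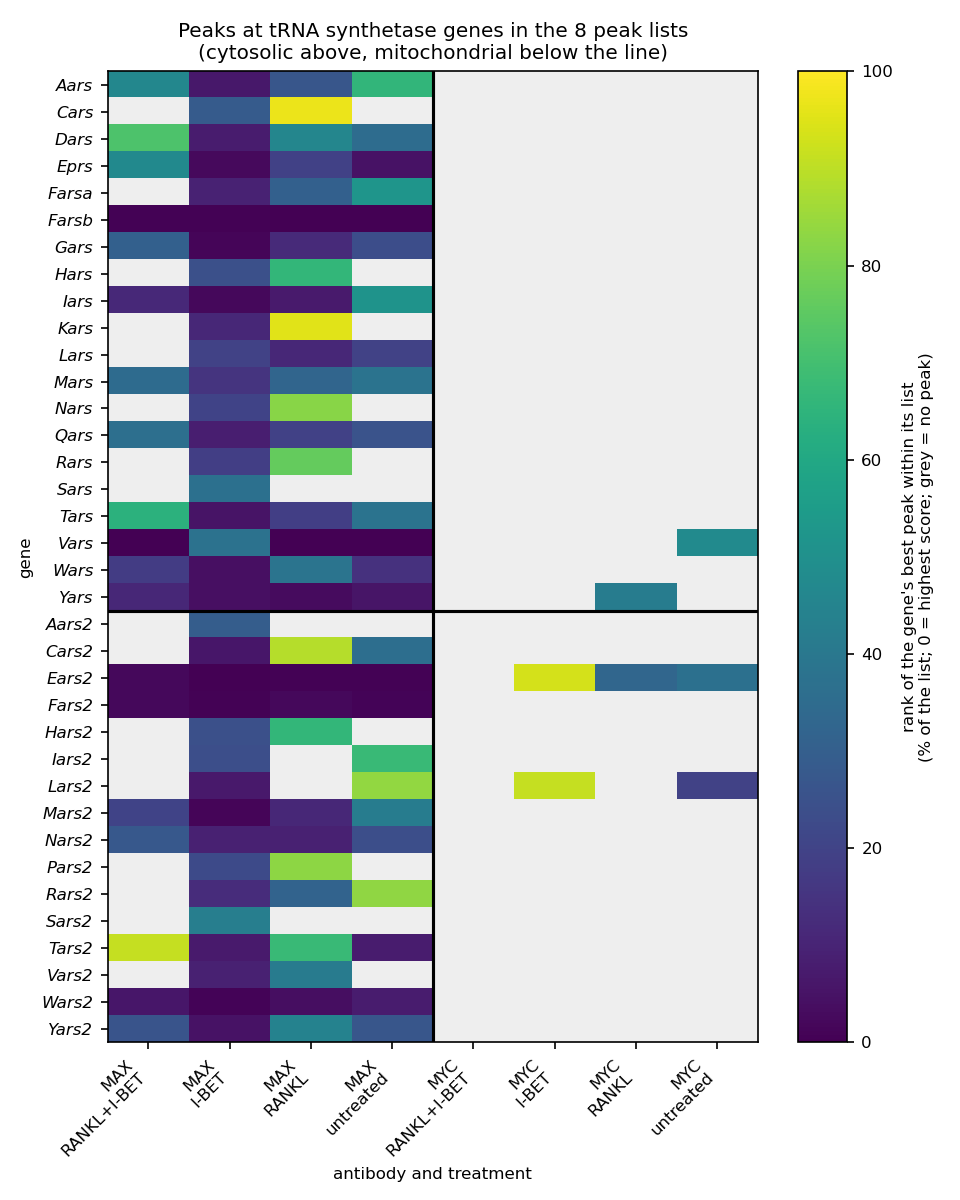
Rows are the 36 member genes, cytosolic above the line, and columns the 4 MAX and 4 MYC lists. Colour gives the rank of the gene's best-scoring peak within its list in percent of the list, dark for the highest scores, and grey means no peak. Every member has a MAX peak with I-BET, 19 have 1 in all 4 MAX lists, and MYC entries are limited to Vars, Yars, Ears2 and Lars2.

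MAX was listed at 19 of 36 members with RANKL plus I-BET, at 36 with I-BET, at 31 with RANKL and at 25 in untreated cells. With RANKL plus I-BET 12 of 20 cytosolic members (60%, exact 95% interval 36.1 to 80.9) and 7 of 16 mitochondrial members (43.8%, 19.8 to 70.1) had a MAX peak, against 23.5% of all protein-coding genes. With I-BET all 20 and all 16 did (lower bounds 83.2% and 79.4%), against 58.7% of all genes. With RANKL 19 of 20 (95%, 75.1 to 99.9) and 12 of 16 (75%, 47.6 to 92.7) did, against 34.5%. In untreated cells 14 of 20 (70%, 45.7 to 88.1) and 11 of 16 (68.8%, 41.3 to 89.0) did, against 29.8%. The Clopper-Pearson intervals cover counting error only. In each treatment the cytosolic and mitochondrial intervals overlap, and the difference between the compartments was not tested. Member genes are longer than others (median extent 26970 bp against 17169 bp). MAX was also counted within 1 kb of any annotated start site. These windows are of equal size per site, but a gene with several sites, such as Aars2 with 2, has several windows. MAX was then at 14 of 27 members with RANKL plus I-BET (19.5% of all genes with such a site) and 27 with I-BET (51.6%). It was at 20 with RANKL (29.2%) and 20 in untreated cells (25.1%).

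**Figure D2:**
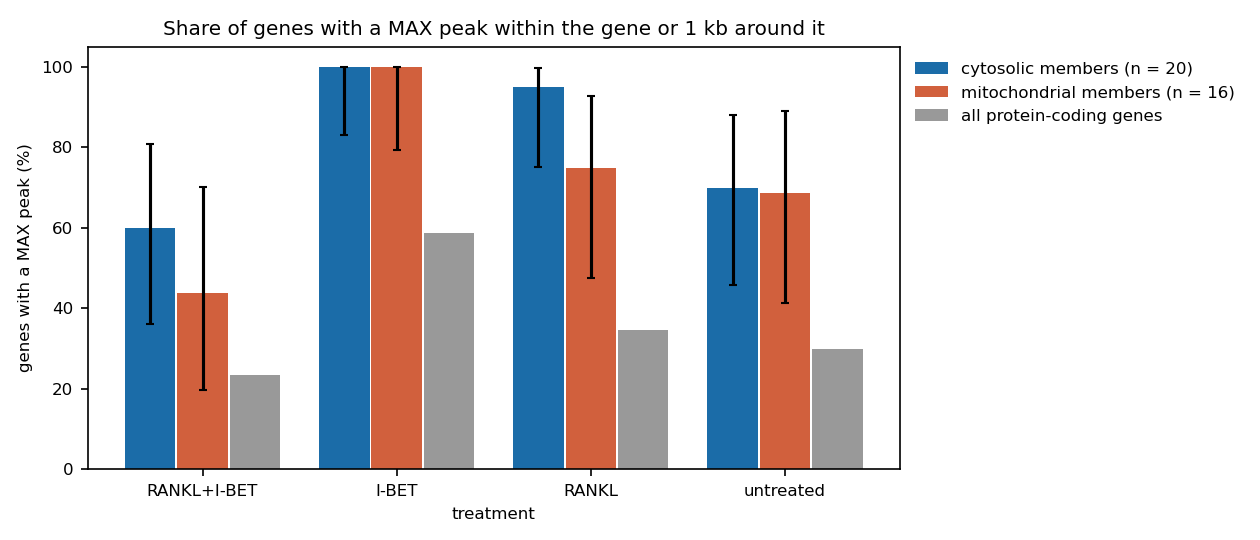
Bars give the percentage of the 20 cytosolic members, the 16 mitochondrial members and all 21887 protein-coding genes with a MAX peak in each treatment, and error bars are exact 95% binomial intervals for counting error. Both member groups stand above the grey bar in every treatment and their intervals overlap each other. With RANKL plus I-BET the mitochondrial interval (19.8 to 70.1%) includes the share of all genes (23.5%). The intervals are no test of members against all genes.

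The 19 genes with MAX in all 4 treatments were Aars, Dars, Eprs, Farsb, Gars, Iars, Mars, Qars, Tars, Vars, Wars and Yars of the cytosolic set and Ears2, Fars2, Mars2, Nars2, Tars2, Wars2 and Yars2 of the mitochondrial set. This is 52.8% of members, against 20.3% of all genes and 34.4% of the 12887 genes that any of the MAX lists contains. Another 4 (Farsa, Lars, Cars2 and Rars2) had MAX in each treatment but the combination (6.60% of all genes). MAX was listed with I-BET and RANKL only at 8 members (5.71% of all genes), with I-BET and in untreated cells only at 2 (2.27%), and with I-BET alone at 3 (20.7%). No member had MAX in the combination, I-BET and RANKL only (1.82% of all genes), in the combination, I-BET and untreated cells only (0.621%) or in the combination and I-BET only (0.777%). RANKL and untreated cells only (0.0228%) and RANKL alone (0.0731%) also held 0 members.

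Farsb, a subunit of the cytosolic phenylalanyl-tRNA synthetase, carried the highest-ranked member peak of the untreated and the RANKL list. Its start-site MAX peak ranked 41 of 6307 with RANKL plus I-BET (514 bp wide), 154 of 36785 with I-BET (1200 bp), 12 of 10889 with RANKL (757 bp) and 20 of 8839 in untreated cells (726 bp, chr1:78488542-78489267). CACGTG starts 39 bp upstream of the start site, inside all 4 peaks. MYC was listed at Farsb in no treatment. The gene of the partner subunit, Farsa, had narrower and lower-ranked MAX peaks, of 644 bp with I-BET (rank 3464), 380 bp with RANKL (rank 3360) and 385 bp in untreated cells (rank 4616), and none with RANKL plus I-BET.

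Among mitochondrial members Fars2, the phenylalanyl-tRNA synthetase of mitochondria, and Wars2, the tryptophanyl one, came next after Ears2 by rank in every list except the untreated one, where Tars2 (rank 665) stood before Wars2. The Fars2 start-site MAX peak ranked 126 with RANKL plus I-BET, 153 with I-BET, 221 with RANKL and 97 in untreated cells, in a window shared with Lyrm4. The Wars2 peak ranked 382, 323, 394 and 675 in the same order, and no other gene shared it. Neither promoter window of 300 bases holds an E-box of the forms searched (20.8% of all genes have either form). The untreated Wars2 peak (chr3:99141160-99141594) begins beyond that window, so its sequence was not searched.

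MAX was counted apart for the enzymes of the multisynthetase complex and the other cytosolic enzymes, a split chosen after the data were seen. With RANKL plus I-BET 5 of 8 complex genes (Dars, Eprs, Iars, Mars and Qars, but not Kars, Lars or Rars) and 7 of 12 others were listed (23.5% of all genes). With I-BET all 8 and all 12 were (58.7%). With RANKL it was 8 of 8 and 11 of 12 (34.5%), and in untreated cells 6 of 8 and 8 of 12 (29.8%). The split was not tested, and counts over 8 and 12 genes can neither show nor exclude a difference between complex genes and the others. Eprs, whose protein charges tRNA with both glutamate and proline, had start-site MAX peaks of 523 bp with RANKL plus I-BET, 1214 bp with I-BET, 636 bp with RANKL and 516 bp in untreated cells (rank 426). Iars, the isoleucyl enzyme, had peaks of 531 bp, 620 bp, 435 bp and 402 bp in the same order, each over its CACGTG.

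The comparison of RANKL with untreated cells concerns the first hours of osteoclast induction. MAX was gained at 8 of 36 members (7.60% of all genes, 12.9% of genes in any MAX list) and lost at 2 (2.92% of all genes, 4.97% of genes in any MAX list). MYC was gained at 1 member, Yars (0.667% of all genes), lost at 2, Vars and Lars2 (0.736%), and present in both at 1, Ears2 (0.681%). The cytosolic gains were Cars, Hars, Kars, Nars and Rars, the enzymes for cysteine, histidine, lysine, asparagine and arginine. The mitochondrial gains were Hars2, Pars2 and Vars2. Hars and Hars2 lie next to each other and were gained through the same 374 bp peak, so the 8 genes stand for 7 peaks. Their best peaks ranked 4543 (Vars2) to 10570 (Cars) of 10889 in the RANKL list (median 8635.5), while the 23 members listed in both treatments ranked 12 to 9692 (median 2039).

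The gained peaks were 289 to 552 bp wide, beside a median of 483 bp for the RANKL list. The RANKL peak was 289 bp at Cars (rank 10570), 552 bp at Kars (rank 10398), 321 bp at Nars (rank 8958), 344 bp at Rars (rank 8313), 451 bp at Pars2 (rank 9024) and 308 bp at Vars2 (rank 4543). When each MAX list was held to its 6307 top-scoring peaks, 2 members were gained with RANKL (Rars2 and Vars2), against 4.79% of all genes. In the same lists 3 were lost (Cars2, Iars2 and Tars2), against 4.90% of all genes. Of the 8 gains above, Vars2 was still gained and the other 7 were not. The 2 losses were Lars2, whose start-site peak is described above, and Iars2, whose untreated peak of 263 bp has its midpoint 1388 bp downstream of the start site.

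At start sites the RANKL and untreated counts were equal, at 20 of 27 members each, with 18 of these shared. Kars and Vars2 were added, and Aars and Lars2 were no longer listed. The Aars start-site peak, over its CACGTG 146 bp upstream, was 1044 bp wide with I-BET, against 370 bp untreated, and was not listed with RANKL or RANKL plus I-BET. Aars, the alanyl enzyme, still counts as bound in all 4 MAX lists through a peak beyond its far end, which was 864 bp wide with RANKL and is shared with Exosc6. The same holds for Qars, the glutaminyl enzyme, whose MAX peak in all 4 lists lies beyond its far end towards Qrich1. At the Qars start site a MAX peak (1122 bp) was listed with I-BET alone. Nars2, the mitochondrial asparaginyl enzyme, had an intragenic MAX site in all 4 lists, with a midpoint 24709 bp downstream of the start site in the combination (306 bp wide). Its start-site peak was 727 bp wide with I-BET, 327 bp with RANKL and 543 bp in untreated cells, and was not listed with RANKL plus I-BET.

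The comparison of I-BET with untreated cells concerns the part of BET proteins in binding. MAX was gained at 11 of 36 members (29.0% of all genes, 49.3% of genes in any MAX list), lost at 0 (0.0594%) and present in both at 25 (29.7%). MYC was lost at 1 (1.29%), Vars, gained at 0 (0.169%) and listed in both at 2 (0.123%), Ears2 and Lars2. The I-BET MYC list is unlike the untreated one. Its peaks are narrower (median 72.5 bp, untreated 260 bp), and 5.88% of them lie at start sites (untreated 57.7%). Ears2 and Lars2 stand near its end (ranks 127 and 124 of 136), and neither is in its higher-scoring part. Their entries are therefore not shown to be MYC binding kept under I-BET. The I-BET MAX list is the longest. To the 8 genes gained with RANKL, I-BET added Sars, Aars2 and Sars2. Sars, the cytosolic seryl enzyme, had a 1539 bp peak at its start site (rank 13650 of 36785), Sars2, its mitochondrial counterpart, 1006 bp (rank 15793) and Aars2 519 bp (rank 10837). None of the 3 promoters shown above holds an E-box of the forms searched. Most promoters hold neither form, since either was in 11 of 27 members and 20.8% of all genes. Held to its 6307 top-scoring peaks, the I-BET list had MAX at 13 of 20 cytosolic and 11 of 16 mitochondrial members (26.9% of all genes). Against untreated cells 4 members were then gained (7.53% of all genes) and 3 (Lars, Vars and Iars2) lost (3.79%). Vars is missing there because its 1612 bp peak carries a score of 0.

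MAX peaks at member start sites were wider with I-BET. All 20 members with a start-site peak in both lists had the wider peak with I-BET, and the median was 960 bp with I-BET, against 505 bp untreated, at a median ratio of 1.75 (range 1.09 to 3.19). Over all genes the median ratio was 2.15 (4391 genes, 4344 wider). With RANKL against untreated cells 15 of 18 members were wider, with a median ratio of 1.18. Over all genes 2767 of 3925 were wider, with a median ratio of 1.14. Of the member MAX peaks, 19 of 62 with I-BET and 6 of 28 in the untreated list lay inside a gene, over 1 kb from both ends of its extent. Of the 6 in untreated cells, those of Aars, Eprs, Tars2 and Wars2 were start-site peaks. With I-BET Fars2 had 4 additional MAX peaks of 225 to 339 bp downstream of its start site.

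**Figure D3:**
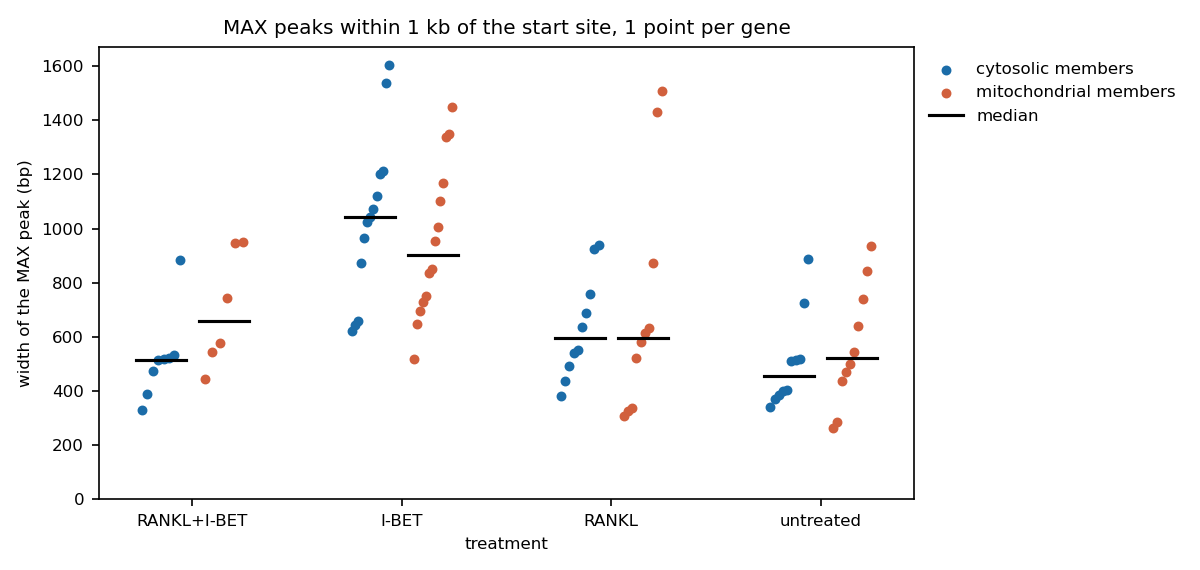
Each point is the width in bp of the widest MAX peak within 1 kb of the start site of 1 member gene, in blue for cytosolic and in orange for mitochondrial members, and black bars are medians. Widths with I-BET reach 1604 bp at Yars, and the smallest untreated peak is 262 bp at Lars2.

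RANKL plus I-BET was set against each agent alone. Against RANKL, MAX was lost at 12 of 36 members (12.4% of all genes, 21.1% of genes in any MAX list), gained at 0 (1.40%) and present in both at 19 (22.1%). The 12 were the 8 genes gained with RANKL over untreated cells and Farsa, Lars, Cars2 and Rars2. Their best RANKL peaks ranked 1204 to 10570 (median 7753), while the 19 that kept MAX ranked 12 to 7369 (median 1293). The highest-ranked loss was Lars, the cytosolic leucyl enzyme, whose peak was 852 bp wide with I-BET, 684 bp with RANKL (rank 1204) and 715 bp in untreated cells (rank 1740). Against I-BET, MAX was lost at 17 of 36 members (35.3% of all genes, 59.9% of genes in any MAX list) and gained at 0 (0%). With equal numbers of top peaks 4 members were lost (4.54% of all genes) and 1, Tars2, gained (4.97%) against RANKL. In the same lists 6 were lost (7.21%) and 1, Vars, gained (3.8%) against I-BET. The gain at Vars rests on the score of 0 of its 1612 bp I-BET peak, which keeps that peak out of the top-scoring ones. MYC was lost at both members that had it with RANKL, Yars and Ears2 (1.32% of all genes), and at both that had it with I-BET, Ears2 and Lars2 (0.288%), and no member gained it in either contrast (0.00457% and 0.0320%). The combined MYC list holds 11 peaks in all.

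Start-site MAX peaks that remained in the combination were narrower. Of 14 members 1, Iars, was wider than with RANKL (median 527 bp against 662.5 bp, median ratio 0.772). Over all genes 541 of 3183 were wider, with a median ratio of 0.792. Against I-BET 0 of 14 members were wider, with a median ratio of 0.561. Over all genes 11 of 3411 were wider than with I-BET, with a median ratio of 0.419. Gars, the glycyl enzyme of both compartments, was 389 bp wide with RANKL plus I-BET, 1073 bp with I-BET, 539 bp with RANKL and 510 bp in untreated cells.

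E-box letters were searched on both strands of the 300-base promoters. Of 27 members with a promoter in the table (13 cytosolic and 14 mitochondrial), CACGTG was found in 4 cytosolic promoters (Aars, Farsb, Iars and Tars) and 1 mitochondrial promoter (Ears2). Over all 17492 genes with a promoter the share was 8.91%. CACGCG on either strand was in 5 cytosolic promoters (Eprs, Farsa, Mars, Tars and Yars) and 2 mitochondrial ones (Iars2 and Mars2), against 13.7% of all genes. Either form was in 8 of 13 cytosolic and 3 of 14 mitochondrial promoters, against 20.8% of all genes. Among genes with a MAX peak at the start site in untreated cells 18% had CACGTG, against 5.86% of those without.

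The MAX peaks covered most of these E-boxes. Of the 12 occurrences, 8 lay inside a MAX peak with RANKL plus I-BET, 12 with I-BET, 10 with RANKL and 10 in untreated cells. The same count over all promoters is not given here. By gene, 10 of 11 members with an E-box of either form had a start-site MAX peak in untreated cells. So did 10 of 16 members with neither form (25.1% of all genes). Over all genes with a promoter, 791 of 1559 with CACGTG and 1217 of 2399 with CACGCG had a start-site MAX peak in untreated cells. The exception among the 11 was Iars2, covered with I-BET only. With RANKL plus I-BET the counts were 8 of 11 and 6 of 16 (19.5%). With I-BET they were 11 of 11 and 16 of 16 (51.6%), and with RANKL 9 of 11 and 11 of 16 (29.2%). The letters are a description of the window, and a match is not shown to be a binding site.

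The amino acid response element core, a motif searched for after the data were seen, was in the promoters of 4 cytosolic members, Aars, Iars, Tars and Yars, and in 0 of 14 mitochondrial ones, against 1.01% of all genes. All 4 of these promoters also hold an E-box of either form. In Iars the CACGTG starts 69 bp upstream and the core 7 bp downstream of the start site. In Tars, the threonyl enzyme, the core starts 15 bp upstream, CACGTG 19 bp and CACGCG 28 bp downstream, and all 3 lie inside the Tars MAX peak in every treatment. That peak was 329 bp wide with RANKL plus I-BET, 660 bp with I-BET, 492 bp with RANKL and 342 bp in untreated cells.

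**Figure D4:**
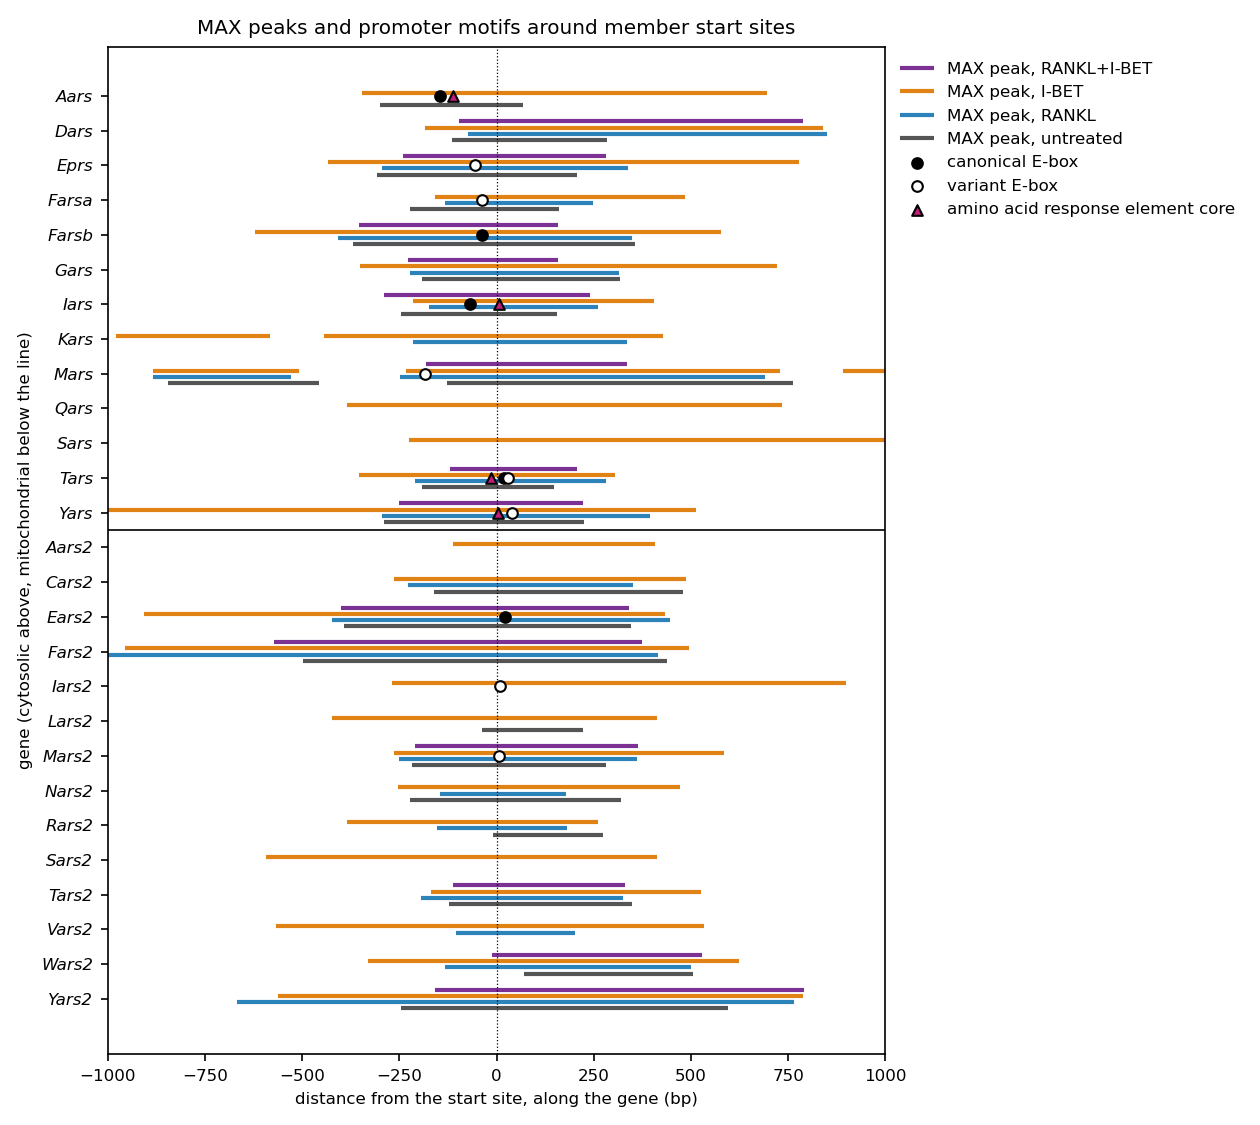
Rows are the 27 member genes with an annotated start site, and the horizontal axis is the distance from it along the gene in bp, cut at 1000 bp on each side. Coloured lines are MAX peaks in the 4 treatments and symbols mark the first base of each motif, searched from 250 bp before to 50 bp after the start site. Orange I-BET peaks cross the start site in every row, and the response element triangles stand in 4 cytosolic rows only.

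MAX was also counted at genes that work with the synthetases. Over all genes the share with a MAX peak was 23.5% with RANKL plus I-BET, 58.7% with I-BET, 34.5% with RANKL and 29.8% in untreated cells. The scaffold proteins of the multisynthetase complex, Aimp1, Aimp2 and Eef1e1, had a MAX peak in all 4 treatments. Aimp1 ranked 75 with RANKL plus I-BET, 59 with I-BET, 24 with RANKL and 35 in untreated cells. Eef1e1 had a MYC peak with RANKL (312 bp, rank 239), and 0 genes of the related lists described next had MYC in any treatment.

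For mitochondria, Qrsl1, Gatb and Gatc, which make the amidotransferase that forms glutaminyl-tRNA there, had MAX in all 4 lists, and Mtfmt, the methionyl-tRNA formyltransferase, with I-BET alone. Of the carriers of charged tRNA, Eef1a1 and the mitochondrial factor Tsfm were listed in all 4, and Tufm in each but RANKL. Of 11 genes of the amino acid response, MAX was at 7 with RANKL plus I-BET, 11 with I-BET, 8 with RANKL and 7 in untreated cells. Atf4, Asns (asparagine synthetase), Ddit3, Psat1, Phgdh, Slc3a2 and Slc7a5 were listed in all 4 treatments, and RANKL added Chac1. Of 11 tRNA processing genes the counts were 6, 11, 8 and 6, and of 6 editing and release genes 2, 6, 3 and 5.

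Several members share their peaks with a neighbour. In untreated cells 4 of 14 listed cytosolic members (Qars, Vars, Wars and Yars) and 3 of 11 mitochondrial ones (Ears2, Fars2 and Rars2) had only peaks that also reached another gene's window. Without shared peaks MAX was at 7 of 20 and 5 of 16 with RANKL plus I-BET (16.8% of all genes), at 17 and 12 with I-BET (47.8%), at 12 and 7 with RANKL (25.1%) and at 10 and 8 in untreated cells (21.6%), the cytosolic count first. With all peaks the mitochondrial count was 12 with RANKL and 11 in untreated cells, and this order turned round without shared peaks. MYC was then listed at 1 member, Lars2, with I-BET (0.247% of all genes) and in untreated cells (0.959%). Both entries are the far-end peak at which binding is not shown.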

How the data were processed

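Peak lists from MYC and MAX ChIP-seq were used. The 12 libraries comprise 8 with a peak list and 4 inputs, which were not analysed here. Crosslinking took 15 min in 1% formaldehyde, and libraries were read as single-end 50 bp reads, per the labels' protocols. FastQC, Bowtie2 2.3.4.1, MACS2 2.1.1.20160309 and mm10 are named in the submitters' processing notes. Each deposited row holds a position and a score, the authors' own value per peak, and joins peaks of 3 call sets (numbered 3, 5 and 7) whose nature is not stated. For the use of input, thresholds and duplicate reads, nothing is stated in the labels. Reads that pile up without binding, or map to repeats, can therefore enter a list. Starts were taken as BED starts and raised by 1.

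Peaks were joined to the RefSeq gene table (GRCm38.p6, chromosomes 1 to 19, X and Y). Start sites and promoters came from the RefSeq promoter table, which had 27 members. Shares carry exact Clopper-Pearson 95% intervals. No test between treatments was possible with 1 list each. All 36 members and fixed lists of related genes could be named. A list of further synthetase genes is not reported here. The members and lists were chosen with earlier results of these data known, and the response element and the split by multisynthetase complex came after the data were seen. Other settings tried were windows of 0.5 and 2.5 kb, gene ends, peak midpoints, higher scores, equal list lengths, peaks of at least 100 bp and unshared peaks. Overlaps were tested on simulated data: 2000 of 2000 planted genes of 21887 were recovered, with 0 differences from bedtools 2.31.1. The software was matplotlib 3.10.9, scipy 1.17.1, pandas 2.3.3 and numpy 2.4.6 under Python 3.11.15.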

Additional observations from a re-analysis of the deposited data

How the results depend on the processing

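Over 28 counts and 8 alternatives, 187 of 219 values stayed within 1.5 times the reported count and 32 did not. None moved with windows of 0.5 or 2.5 kb or with peaks of at least 100 bp. With gene ends only, 1 member was lost with RANKL against untreated for MAX (2.63% of all genes). By peak midpoint 2 were gained for MAX with RANKL plus I-BET against RANKL (1.43%). In the higher-scoring part of each list, MYC with I-BET was at 0 members (0.123% of all genes). MYC was there lost at 3 with I-BET against untreated (0.69%) and at 0 with RANKL plus I-BET against I-BET (0.123%). MAX was there gained at 5 with RANKL (6.22% of all genes) and at 17 with I-BET (33%) against untreated. It was lost at 6 with RANKL plus I-BET against RANKL (8.81%). With equal numbers of top peaks (6307 for MAX, 136 for MYC), cytosolic members with MAX under I-BET were 13. MAX was then gained at 2 with RANKL and 4 with I-BET against untreated, lost at 3 with I-BET, gained at 1 and lost at 4 with RANKL plus I-BET against RANKL, and gained at 1 and lost at 6 against I-BET. Of these, 1 loss with I-BET and the gain against I-BET are Vars, through its score of 0. The shares of all genes beside these MAX counts are given above. MYC was then lost at 1 with RANKL (0.329% of all genes) and 0 with I-BET (0.516%) against untreated. The combined MYC list is too short for that alternative. Without peaks shared between genes, MAX was at 12 cytosolic and 7 mitochondrial members with RANKL and at 7 cytosolic members with the combination. MAX was then gained at 4 with RANKL (5.94% of all genes) and lost at 1 with I-BET (0.256%) against untreated. It was lost at 7 with the combination against RANKL (9.51%). MYC was then at 1 member with I-BET (0.247% of all genes), 0 with RANKL (0.868%) and 1 in untreated cells (0.959%). Against untreated cells it was gained at 0 (0.393%) and lost at 1 (0.484%) with RANKL, and lost at 0 with I-BET (0.882%). With the combination it was lost at 0 against RANKL (0.836%) and 1 against I-BET (0.242%). The shared-peak, equal-number and higher-scoring alternatives leave peaks out of the lists by construction. Apart from Vars, why a count moved was not tested for any alternative. No paired analysis was possible because each antibody and treatment has 1 list, and no replicate could be left out. Read depth is unknown, so a missing peak is not shown to be missing binding.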
